A study of Mus musculus with 2 samples.

Results

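The rodent mammalian apparent LTR retrotransposons (MaLR) of the MT and ORR1 groups were examined in a chromatin immunoprecipitation sequencing (ChIP-seq) data set of H3.3S31ph, the histone variant H3.3 carrying a phosphate on serine 31. Members were the rows of the repeat count tables whose name starts with ORR1, or with MT followed by a letter from A to E. This rule uses names only, but it was set with earlier results of these data known. They numbered 27 of 952 rows, 16 of ORR1 and 11 of MT, and comprised 21 long terminal repeat (LTR) rows and 6 internal rows, whose names end in -int. All 27 had at least 1000 input reads, so none was lost to the minimum of 100 input reads that 704 rows of the table passed.

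The data came from 1 ChIP library and 1 input library, the latter sheared chromatin sequenced without antibody. Both were from wild-type mouse embryonic stem (ES) cells of strain 129S1/SvImJ. The cells of both libraries had been arrested for 12 hours by 9 µM RO-3306, which inhibits the cell-cycle kinase CDK1, and were taken in mitosis 11 hours after its removal, so no unsynchronised or interphase cells were available as a contrast. Each library was sequenced on 2 lanes, and the lanes are repeat runs, not replicates. The tables hold repeat reads only, and the labelled cell type could not be checked against gene markers in them.

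MaLR elements are non-autonomous retrotransposons: they consist of LTRs flanking an internal stretch that lacks retroviral coding capacity, and they are thought to have moved with the machinery of ERVL-type retroviruses. The LTR carries the promoter and the polyadenylation signal. MT and ORR1 LTRs are known as promoters and first exons of transcripts in mouse oocytes and early embryos, an MTC LTR in the Dicer1 gene being an example. H3.3 is a histone H3 variant deposited outside of replication, and phosphorylation of its serine 31, a residue that canonical H3 lacks, is a mitotic mark known from telomeres of ES cells and from centromere-adjacent heterochromatin.

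Over both lanes the members held 1117169 ChIP reads and 1013808 input reads. They made up 9.13% of the 12235477 ChIP reads and 11.4% of the 8856751 input reads in the tables. The ratio of a row is its share of the ChIP reads of the tables divided by its share of their input reads, and the interval given with it is a 95% exact conditional interval. Intervals cover counting error only, reads without molecular identifiers are not independent molecules, and with 1 library of each kind no difference has a replicate check and no test was made. The pooled ratio of the members was 0.798 (0.796 to 0.800), at 0.796 in lane 1 and 0.799 in lane 2.

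Every one of the 27 rows had an interval below 1, a state shared by 79.5% of the 704 rows with at least 100 input reads and by 84.7% of the 406 rows with at least 1000. No member had an interval above 1, against 7.81% of the 704 rows. A ratio of 0.8 or lower was reached by 13 members, or 48.1%, against 47.4% of the 704 rows and 41.4% of the 406. The median log2 ratio of the members was -0.32, and that of the 704 rows was -0.31. Shares sum to the same total in both libraries, so a gain in some rows lowers the others, and which rows gained was not tested. The median repeat itself stood at a ratio of 0.805. The members' distance from input was thus close to that of the median row. Against the median repeat, taken as fixed, 7 members had an interval below it, 5 above it and 15 included it. The shares of the 704 rows were 19.2% below and 27.3% above. With the median taken over the 406 rows with at least 1000 input reads, 15 members lay below it and 4 above. Of the 406 rows themselves, 31.3% lay below that median and 33.7% above it. Measured against the main median, 25.1% of the 406 rows lay below and 36.5% above.

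**Figure D1:**
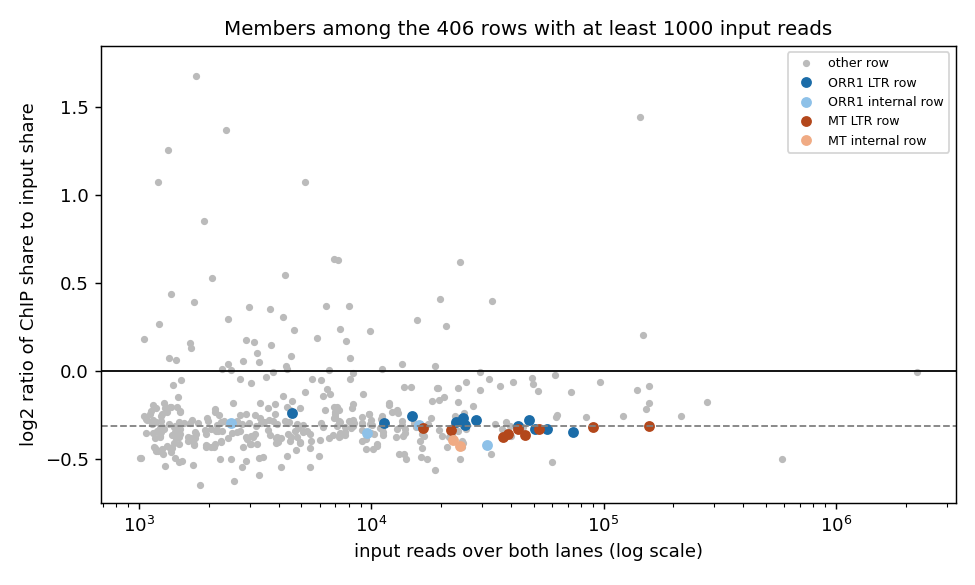
Log2 ratio of ChIP share to input share (y axis) against input reads over both lanes (x axis, log scale) for the rows with at least 1000 input reads, with the MT and ORR1 rows in colour, the dashed line at the median repeat and the solid line at the input level. The members sit in a narrow band around the dashed line, and 1 row of the table lies outside the plotted range.

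The members differed little from each other. Their ratios ran from 0.746 to 0.849, a span of 1.14-fold. The SD of their log2 ratios was 0.046, compared with 0.35 over the 406 rows with at least 1000 input reads. The median counting error (SE) of a member's log2 ratio was 0.012, so the spread among members was wider than counting error. Of 351 pairs of members, 194 had a ratio of ratios whose interval excluded 1. The same share over pairs of other rows was not computed, so this count does not set the members apart. In the order from highest to lowest, however, none of the 26 pairs of neighbours was separable. Sorting by ratio makes the gaps between neighbours small, so this cannot show whether the order has steps.

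The highest 3 ratios belonged to LTR rows of ORR1. ORR1A0 had 2755 ChIP reads and 2262 input reads in lane 1, and 2610 and 2311 in lane 2, which gave a ratio of 0.849 (0.816 to 0.884). It was also the LTR row with the fewest reads, and its ratio was 0.877 in lane 1 and 0.822 in lane 2. ORR1A3 followed at 0.840 (0.822 to 0.859), with 17377 ChIP and 14971 input reads and a ratio of 0.840 in each lane. ORR1B2 had 0.831 (0.817 to 0.845), with 28589 ChIP and 24904 input reads. All 3 lay above the median repeat, as did ORR1C2 at 0.826 and ORR1A2 at 0.824.

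The lowest 3 rows were all internal. MTC-int, the internal sequence named after the MTC element, had 12655 ChIP reads and 12199 input reads in lane 1, and 12227 and 11952 in lane 2, a ratio of 0.746 (0.733 to 0.759). ORR1B1-int had 32593 ChIP and 31547 input reads in all and a ratio of 0.748 (0.736 to 0.760). MTE-int had 23789 ChIP and 22576 input reads and a ratio of 0.763 (0.749 to 0.777). The lanes gave these rows nearly the same values, 0.747 and 0.745 for MTC-int, 0.750 and 0.746 for ORR1B1-int, and 0.765 and 0.761 for MTE-int.

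**Figure D2:**
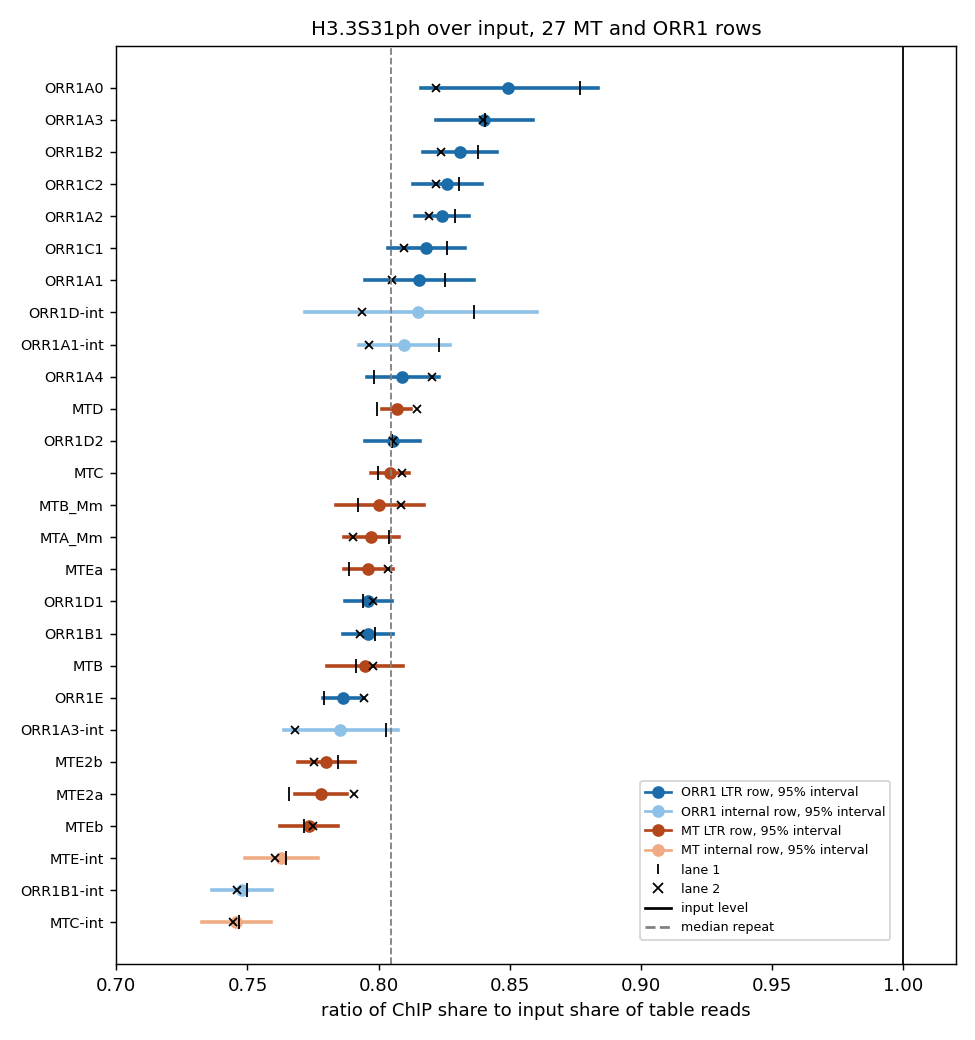
Ratio of ChIP share to input share (x axis) for each of the 27 rows, ordered from highest to lowest, with the 95% counting interval as a bar and the 2 lanes as separate marks; the solid line is the input level and the dashed line the median repeat at 0.805. The highest 3 rows are ORR1 LTR rows and the lowest 3 are internal rows, the rows between them are of mixed kinds, and every row lies left of the input level.

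Most reads came from LTR rows, which held 89.5% of the members' input reads. Their pooled ratio was 0.802 (0.799 to 0.804). By group, the 12 ORR1 LTR rows pooled to 0.808 (0.804 to 0.811) and the 9 MT LTR rows to 0.797 (0.793 to 0.800). The ratio of MT over ORR1 was 0.986 (0.981 to 0.992), where the interval comes from the 4 read counts on the log scale. It was 0.980 in lane 1, and in lane 2 it was 0.993 with an interval of 0.985 to 1.001. No MT row had an interval above the median repeat and 5 of 11 (45.5%) had one below it. Among 16 ORR1 rows, 5 (31.25%) lay above and 2 (12.5%) below. Over the 704 rows with at least 100 input reads, 27.3% lay above and 19.2% below. Over the 406 rows with at least 1000, these shares were 36.5% and 25.1%, so the ORR1 share above was not unusual. The ranges overlapped: 8 of 12 ORR1 LTR rows were higher than MTD, the highest MT row, and the remaining 4 lay among the MT rows.

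Subtypes of each group were ordered by letter, from A, the youngest, to E, the oldest in these tables. A ratio of one subtype over another does not depend on the scale between the libraries. In ORR1, the LTR rows of letter A pooled to 0.823 (0.816 to 0.830), those of B to 0.807 (0.799 to 0.815) and those of C to 0.823 (0.813 to 0.832). Those of D pooled to 0.800 (0.793 to 0.807), and the single row ORR1E had 0.787 (0.779 to 0.795). The oldest subtype was thus the lowest, but the order was not even, as C stood level with A. ORR1 E over D was 0.983 (0.970 to 0.996), and in lane 2 its interval of 0.973 to 1.010 included 1. ORR1 C over B was 1.019 (1.003 to 1.035), a rise against the order by age. Its interval included 1 in each lane alone. ORR1 D over A was 0.972 (0.961 to 0.984), and ORR1 E over A was 0.956 (0.944 to 0.968). Both differences had intervals below 1 in each lane. ORR1 C over A was 1.000 (0.985 to 1.014). ORR1 B over A was 0.981 (0.969 to 0.994), and in lane 1 its interval of 0.966 to 1.002 included 1.

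Rows of the same ORR1 letter were not alike. The 5 LTR rows of letter A ran from 0.809 for ORR1A4 to 0.849 for ORR1A0. ORR1A4, with the last number of the A series, was 0.978 (0.959 to 0.997) of the other A rows. It was 0.958 in lane 1, and in lane 2 it was 0.999 with an interval that included 1 (0.972 to 1.027). Comparisons within a letter were not among those planned. As ORR1A4 is the lowest of the 5 A rows, its interval is not a fair one. Within B, ORR1B1 had 55789 ChIP and 50746 input reads and a ratio of 0.796, whereas ORR1B2 had 0.831. Their ratio of 0.958 (0.938 to 0.978) was about as far from 1 as that of the oldest letter over the youngest. The C rows, 0.818 for ORR1C1 and 0.826 for ORR1C2, and the D rows, 0.796 for ORR1D1 and 0.805 for ORR1D2, were closer together. Across the 12 ORR1 LTR rows, Spearman's rho of log2 ratio with letter was -0.59, at -0.54 in lane 1 and -0.51 in lane 2. All rows share the same 2 libraries, and rows of 1 letter may share reads.

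In MT the letters A to D were level and E was lower. MTA_Mm, the youngest MT subtype, had 47020 ChIP and 42701 input reads and a ratio of 0.797 (0.787 to 0.808). The B rows, MTB at 0.795 and MTB_Mm at 0.800, pooled to 0.797 (0.786 to 0.808). MTC had 100502 ChIP and 90453 input reads and a ratio of 0.804 (0.797 to 0.812). MTD, the most abundant member with 174151 ChIP and 156236 input reads, had 0.807 (0.801 to 0.812). The 4 LTR rows of letter E pooled to 0.783 (0.778 to 0.788).

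MT E over A was 0.982 (0.968 to 0.997), with 0.968 in lane 1 and 0.997 (0.976 to 1.018) in lane 2, so its interval excluded 1 in lane 1 only. MT D over A was 1.012 (0.997 to 1.027) in all, 0.994 in lane 1 and 1.031 (1.009 to 1.053) in lane 2. MTA_Mm was higher in lane 1 than in lane 2, at 0.804 and 0.790, while MTD went the other way, at 0.799 and 0.815. MT E over D was 0.970 (0.961 to 0.980), with 0.974 in lane 1 and 0.967 in lane 2. The planned comparisons were those with A. E over D sets the lowest MT letter against the highest, so its interval is not a fair measure of a step. Of the 4 E rows, MTE2b at 0.780, MTE2a at 0.778 and MTEb at 0.773 had intervals below the median repeat, and MTEa at 0.796 did not. The MTE2 rows together were 0.990 (0.977 to 1.003) of the MTEa and MTEb rows, so the named branches of E were not separable. Spearman's rho of log2 ratio with letter was -0.56 over the 9 MT LTR rows, and it was -0.81 in lane 1 and -0.31 in lane 2. Of these rows 4 are of letter E, and over both lanes the pooled ratios of A to D did not fall with letter.

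Read depth differed between subtypes. Over the 21 LTR rows, Spearman's rho of log2 ratio with log2 input reads was -0.45, and over all 27 members it was -0.27. Its part in the order by letter was not tested. Of 8 comparisons of a later letter with A, 4 had an interval excluding 1, and 2 of these, ORR1 D and ORR1 E, did so in both lanes.

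**Figure D3:**
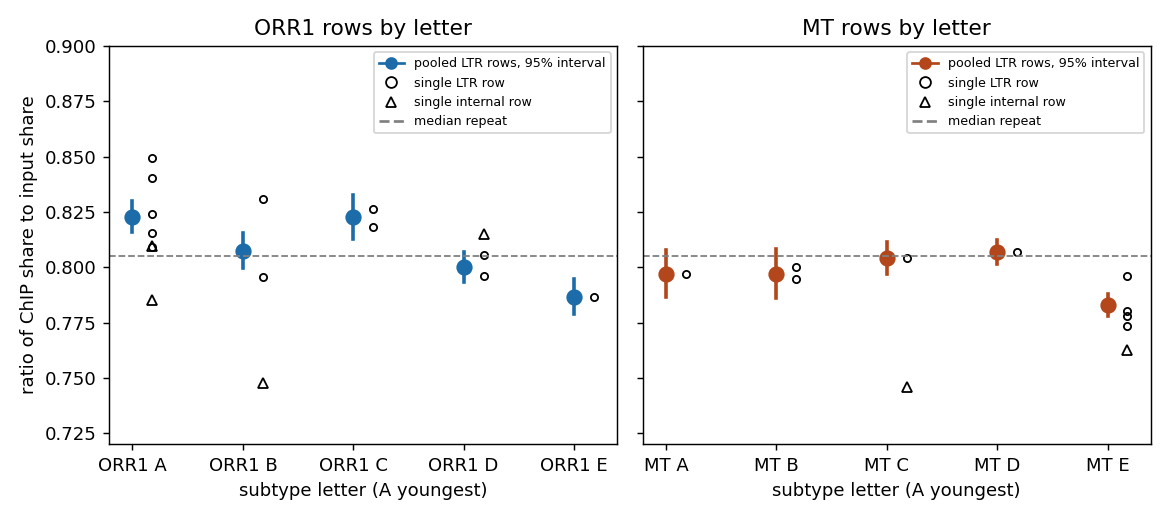
Ratio of ChIP share to input share (y axis) by subtype letter (x axis) for ORR1 and MT, with pooled LTR rows and their 95% counting intervals in colour, single LTR rows as circles and single internal rows as triangles. ORR1 goes from 0.823 at A to 0.787 at E with C level with A, and MT stays near 0.80 from A to D with E at 0.783.

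Internal rows were lower than LTR rows. The 6 internal rows pooled to a ratio of 0.765 (0.758 to 0.771), which was 0.954 (0.946 to 0.963) of that of the LTR rows, with 0.964 in lane 1 and 0.945 in lane 2. In ORR1 the internal rows pooled to 0.773 (0.765 to 0.782), 0.958 (0.946 to 0.969) of the ORR1 LTR rows. In MT they pooled to 0.754 (0.744 to 0.764), 0.947 (0.934 to 0.959) of the MT LTR rows. Without the row with most reads on each side, ORR1B1-int and ORR1E, the log2 difference in ORR1 was -0.019 (-0.043 to 0.0055) in place of -0.063, an interval that included 0. In MT, without MTC-int and MTD, it was -0.054 (-0.081 to -0.027) in place of -0.079.

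Set against the LTR rows of the same name, 4 of 6 internal rows had an interval below 1. The same count was not made for other families. MTC-int was 0.927 (0.909 to 0.946) of MTC, with 0.934 in lane 1 and 0.920 in lane 2. ORR1B1-int was 0.940 (0.922 to 0.958) of ORR1B1, with 0.939 and 0.941. ORR1A3-int was 0.935 (0.902 to 0.968) of ORR1A3, and its interval in lane 1, 0.909 to 1.004, included 1. MTE-int was 0.974 (0.956 to 0.993) of the 4 MTE LTR rows, and again the interval in lane 1, 0.956 to 1.010, included 1.

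The other 2 internal rows were not separable from their LTRs. ORR1A1-int, with 18032 ChIP and 16120 input reads, had a ratio of 0.810 (0.793 to 0.827), which was 0.993 (0.961 to 1.026) of that of ORR1A1. ORR1D-int, the member with the fewest reads at 2806 ChIP and 2492 input, had a ratio of 0.815 (0.772 to 0.861). It was 1.019 (0.965 to 1.076) of the ORR1D1 and ORR1D2 rows, an interval wide enough to hold a deficit of the size seen for MTE-int. Internal rows were matched to LTR rows by name only, and the tables do not show which copies of an LTR flank which internal sequence.

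**Figure D4:**
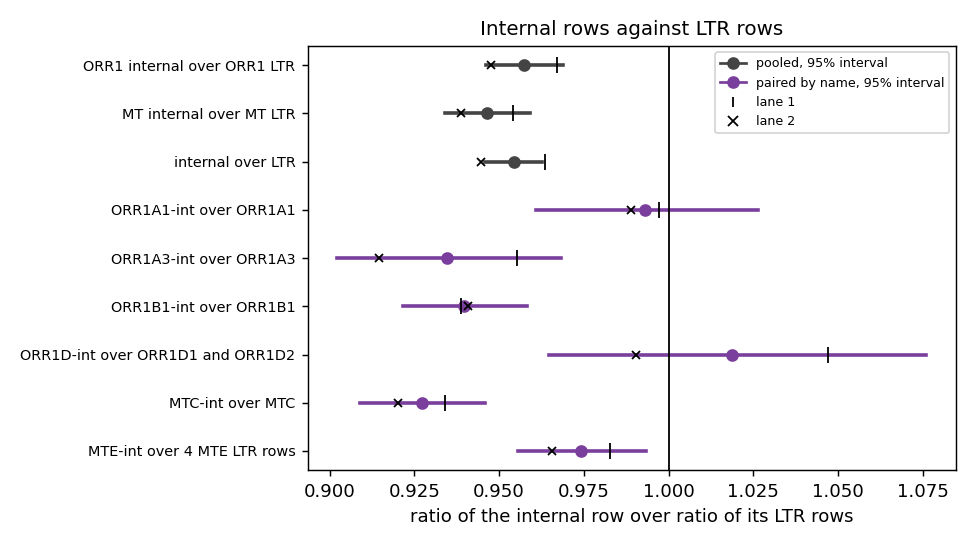
Ratio of internal rows over the ratio of LTR rows (x axis), pooled and for each pair matched by name, with 95% counting intervals as bars and the 2 lanes as separate marks. MTC-int, ORR1B1-int, ORR1A3-int and MTE-int lie left of 1, and the intervals of ORR1A1-int and ORR1D-int cross it.

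The rodent MaLR rows were set against the families most like them. The 43 rows whose names start with MLT, mostly MLT1 elements that are the older MaLR of mammals, pooled to 0.776 (0.771 to 0.780). Single MLT rows ran from 0.685 to 0.865, a range that held every member. Pooled, the rodent rows were 1.028 (1.022 to 1.035) times as high as the MLT rows, with 1.023 in lane 1 and 1.034 in lane 2. Without 10 MLT2 rows, which are LTRs of ERVL-type elements, this was 1.024 (1.017 to 1.031). That alternative was added once the data had been seen. The MT2 rows, LTRs of MERVL and its relatives in the class that MaLR are thought to have depended on, numbered 5 and pooled to 0.788 (0.781 to 0.796). Single MT2 rows ran from 0.773 to 0.823, inside the range of the members. Pooled, the rodent MaLR rows were 1.012 (1.002 to 1.021) times as high as the MT2 rows, and in lane 2 the interval of 0.996 to 1.023 included 1. The LTR rows of the members, pooled at 0.802, lay above both the MLT and the MT2 pool, and their internal rows, at 0.765, below both.

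The authors' deposited table gives a log2 ratio per lane on a scale of its own, and a conservative value, which is whichever bound lies closer to 0 unless the interval spans 0, when it is 0. In the authors' deposited table this value was below 0 for 25 of the 27 members in lane 1, and at 0 for ORR1A0 and ORR1D-int. In lane 2 the authors' deposited table had it below 0 for all 27. Among the 704 rows, the share below 0 was 51.7% in lane 1 and 50.7% in lane 2, and the share at 0 was 32.8% and 34.1%. Those rows reach down to 100 input reads, whereas every member had at least 2492. Fewer reads widen an interval and make a value of 0 more likely, so these shares are not of like depth. The highest deposited log2 ratio of a member in lane 1 was -0.021, for ORR1A0, and the lowest was -0.253, for MTC-int, both in the authors' deposited table.

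The lanes agreed in part for the members. The median difference between lanes was 0.024 on the log2 scale, compared with an SD of 0.046 among members. It was about the size of the pooled log2 difference of MT E from A, -0.026. The largest lane difference was 0.093, for ORR1A0, and 2 members differed by more than counting error at the 95% level. Some rows pass that level from counting error alone. The share of all rows that pass it was not computed, so this count is not read further. The largest differences relative to counting error were those of MTD, at log2 ratios of -0.32 and -0.30, of MTE2a, at -0.38 and -0.34, and of ORR1E, at -0.36 and -0.33. Over the 27 members Spearman's rho between lanes was 0.73 and Pearson's r 0.77. The lanes share their libraries.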

How the data were processed

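Per the submitters' processing notes, Bowtie 1.0.0 and the build mm9 were used. The assignment of reads to repeat types, and the treatment of duplicates and of reads matching several types, are not given in the sources used here. Tables were deposited for each lane, and they hold raw read counts for ChIP and input by repeat type, and the authors' log2 ratios with bounds. Lane 1 held 6204712 ChIP and 4467116 input reads, and lane 2 held 6030765 and 4389635. Lanes were summed. Ratios were scaled by table totals, with 95% Clopper-Pearson intervals, and ratios of ratios had log-scale intervals from 4 Poisson counts. The intervals were tested only on simulated independent Poisson counts, the model they assume, so that test did not cover duplicate or shared reads. Rows with at least 100 input reads set the median repeat. Members were chosen by name alone. Any member with at least 1000 input reads could be described singly, which held for all 27, and internal rows were paired by name. Alternatives were single lanes, other scales, read minimums, 1 added read and other poolings. Members and lists were chosen with earlier results of these data known. Python 3.11.15, NumPy 2.4.6, pandas 2.3.3, SciPy 1.17.1 and matplotlib 3.10.9 were used.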

Additional observations from a re-analysis of the deposited data

How the results depend on the processing

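The scale between the libraries moved every ratio against input, adding to each log2 ratio 0.31 where the median repeat was the reference, 0.29 where old repeats (names starting MIR, L2, Tigger, Charlie or URR1) were, 0.17 on the deposited scale and -0.069 without the 5 rows with most input reads. The pooled log2 ratio of the members, -0.33, became -0.013, -0.033, -0.16 and -0.40 on these scales. Members with an interval below 1 numbered 7 on the median scale and 15 on the old-repeat scale, against 27. Members at 0.8 or lower, 13 with table totals, numbered 0 on the first 3 scales and 25 on the last. With the median repeat set to 1, 12 log2 ratios turned positive: ORR1A0 at 0.077, ORR1A3 at 0.062, ORR1B2 at 0.046, ORR1C2 at 0.038, ORR1A2 at 0.034, ORR1C1 at 0.024, ORR1A1 at 0.019, ORR1D-int at 0.018, ORR1A1-int at 0.0087, ORR1A4 at 0.0075, MTD at 0.0036 and ORR1D2 at 0.00089. With old repeats set to 1, 6 did: ORR1A0 at 0.058, ORR1A3 at 0.042, ORR1B2 at 0.026, ORR1C2 at 0.018, ORR1A2 at 0.014 and ORR1C1 at 0.0040. Comparisons among members do not depend on the scale. In lane 1 alone the log2 difference of MT D from A was -0.0083, of MT E from A -0.047 and of internal from LTR rows -0.053, and in lane 2 alone they were 0.044, -0.0044 and -0.082, where 2 members in place of 5 lay above the median repeat. With a minimum of 1000 input reads, 15 members in place of 7 lay below the median repeat, since that median is higher. By medians of rows, ORR1 internal rows differed from LTR rows by -0.034, and the members from ancient MaLR by 0.053 and from MT2 by 0.038. With internal rows pooled in, ORR1 B over A was -0.051. With same-name pairs only, MT internal over LTR was -0.11. Without the row with most reads on each side, the internal differences were -0.019 for ORR1, -0.054 for MT and -0.052 for both. The causes of these shifts were not tested beyond what each setting changes by construction. Without a read minimum 10 members, in place of 7, lay below the median repeat. Adding 1 read, counting MT-int among internal rows and leaving out MLT2 rows left all results recomputed under them within their main intervals or counts. No paired analysis was possible because each group has 1 sample and no result comes from a test. Depth limits ORR1A0 and ORR1D-int most, the rows with the fewest reads.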

Other observations

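A further internal row, MT-int, carries no subtype letter and so was not among the members. It had 18078 ChIP and 16894 input reads and a ratio of 0.775 (0.758 to 0.791), with 0.782 in lane 1 and 0.767 in lane 2. This value lies between the MT internal rows, pooled at 0.754, and the MT LTR rows, pooled at 0.797. The row was singled out after its value was seen.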
